A study of Mus musculus with 15 samples.

Results

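The transcripts described here are those of 37 mouse genes for lysosomal enzymes and membrane proteins, chosen by gene symbol from a list of known lysosomal genes. The rule uses no measured value, but the list was drawn up with earlier results of these data known. All 37 were among the 23420 gene symbols counted, and all 37 passed the filter on low counts that left 12193 genes to test. PolyA RNA was sequenced from the left lobe of the liver, pulverized, of male mice of the inbred strain C57Bl/6J on 3 diets, with 5 libraries each. Food of the MCD mice held 31% fat and was deficient in methionine, choline and folate, food of the HFD mice held 31% fat, and food of the BD mice was a base diet of 4% fat. All 3 groups, BD included, had been given the vehicle alone, 5% of the emulsifier Alkmauls El-620 in saline, and were sampled 24 h later. No genetic alteration is named for any group. The labels used here do not give the age of the mice, how long the diets were fed, or whether libraries and animals match 1 to 1. A p-value therefore reflects only how far these samples scatter, which may be technical in part.

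Lysosomes are acidic organelles in which hydrolases break down proteins, glycans, sulfated sugars and lipids that arrive by endocytosis and autophagy. Most of the hydrolases are tagged with mannose 6-phosphate in the Golgi and sorted to lysosomes by receptors for that tag, a proton pump keeps the lumen acidic, and the membrane is lined by heavily glycosylated proteins such as LAMP1. The transcription factor TFEB binds an E-box in the promoters of many lysosomal genes. In liver both hepatocytes and resident macrophages, the Kupffer cells, are rich in lysosomes. Diets short of methionine and choline are a common model of steatohepatitis in mice.

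The libraries held 3704642 to 23131089 gene counts, with a median of 10312311, so 3 counts corresponded to 0.13 to 0.81 CPM (gene counts over the library total after trimmed-mean scaling, TMM). Albumin and the other 8 hepatocyte markers found summed to 120400 to 159300 CPM in MCD livers, 115700 to 139400 CPM in HFD livers and 130500 to 150900 CPM in BD livers, as the tissue label says. Some libraries stood apart within their group. HFD replicate 2 was the highest HFD library for 28 of the 37 genes, so results that rest on HFD are given with and without it. How often it was highest over all genes was not computed, so this is not shown to be particular to lysosomal genes. Without it, MCD vs HFD gave 839 of all genes higher and 409 lower, in place of 271 and 113. HFD replicate 4 and BD replicate 5 were each the lowest library of their diet for 15 of the 37. Alignments that were not unique, per gene count, were lowest of all 15 libraries in HFD replicate 2, at 1.147. They were highest of their diet in HFD replicate 4 (2.53) and BD replicate 5 (2.796). Their medians were 1.35 in MCD libraries (1.186 to 1.665), 1.903 in HFD libraries and 1.718 in BD libraries. Any link between this measure and the levels of the 37 genes was not tested. The sample numbers in the titles of the BD libraries lie apart from those of the HFD and MCD libraries, so anything that followed those numbers cannot be told apart from BD.

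The summed level of the 37 transcripts was 7923, 8407, 7286, 7884 and 7851 CPM in MCD livers, 6899, 8205, 6838, 6634 and 6938 CPM in HFD livers and 7119, 6583, 6701, 6828 and 6778 CPM in BD livers. These sums are TMM-scaled and are not shares of the counts of a library. On this scale the 5 MCD sums lay above all BD sums, and the HFD sums other than that of replicate 2 lay inside the BD range. Per kilobase of exon, the 3 most abundant of the 37 in BD livers were Lamp1, Ctsd and Psap. Lamp1 averaged 402 CPM per kb in MCD livers, 362 CPM per kb in HFD livers and 348 CPM per kb in BD livers. Ctsd averaged 294 CPM per kb in MCD livers, 252.5 CPM per kb in HFD livers and 214 CPM per kb in BD livers, and Psap 255 CPM per kb in MCD livers, 213 CPM per kb in HFD livers and 192 CPM per kb in BD livers. The least abundant in BD livers were Sgsh at 1.95 CPM per kb, Tfeb at 1.36 CPM per kb and Cd63 at 0.856 CPM per kb.

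On the MCD diet, 13 of the 37 lysosomal genes rose against BD and none fell. They were 6 proteases (Ctsa, Ctsb, Ctsd, Ctsz, Lgmn, Tpp1), the β-hexosaminidase subunit gene Hexa, the sulfatase genes Arsa and Arsb, the thioesterase gene Ppt1, the sphingolipid activator precursor gene Psap, the tetraspanin gene Cd63 and the progranulin gene Grn. The test was edgeR's quasi-likelihood F test over all 15 libraries, with Benjamini-Hochberg adjustment over all genes tested and a call at an adjusted p under 0.05. The background in the same comparison was 12.8% of all genes tested called higher and 8.64% called lower, against 35.1% of the 37 called higher. At an unadjusted p under 0.05, 18 of the 37 were higher and 1, Gaa, was lower, against 17.8% of all genes higher and 15.6% lower. For 12 of the 37 every MCD library lay above every BD library, as for 9.32% of all genes tested. The median log2 fold change was 0.20 over the 37 and -0.03 over all genes tested. Without the scaling factors the median of all genes moved up by 0.14 on the log2 scale, 22 of the 37 were called higher against 18.9% of all genes, and the calls over all genes split into 2308 higher and 512 lower in place of 1557 higher and 1053 lower.

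**Figure D1:**
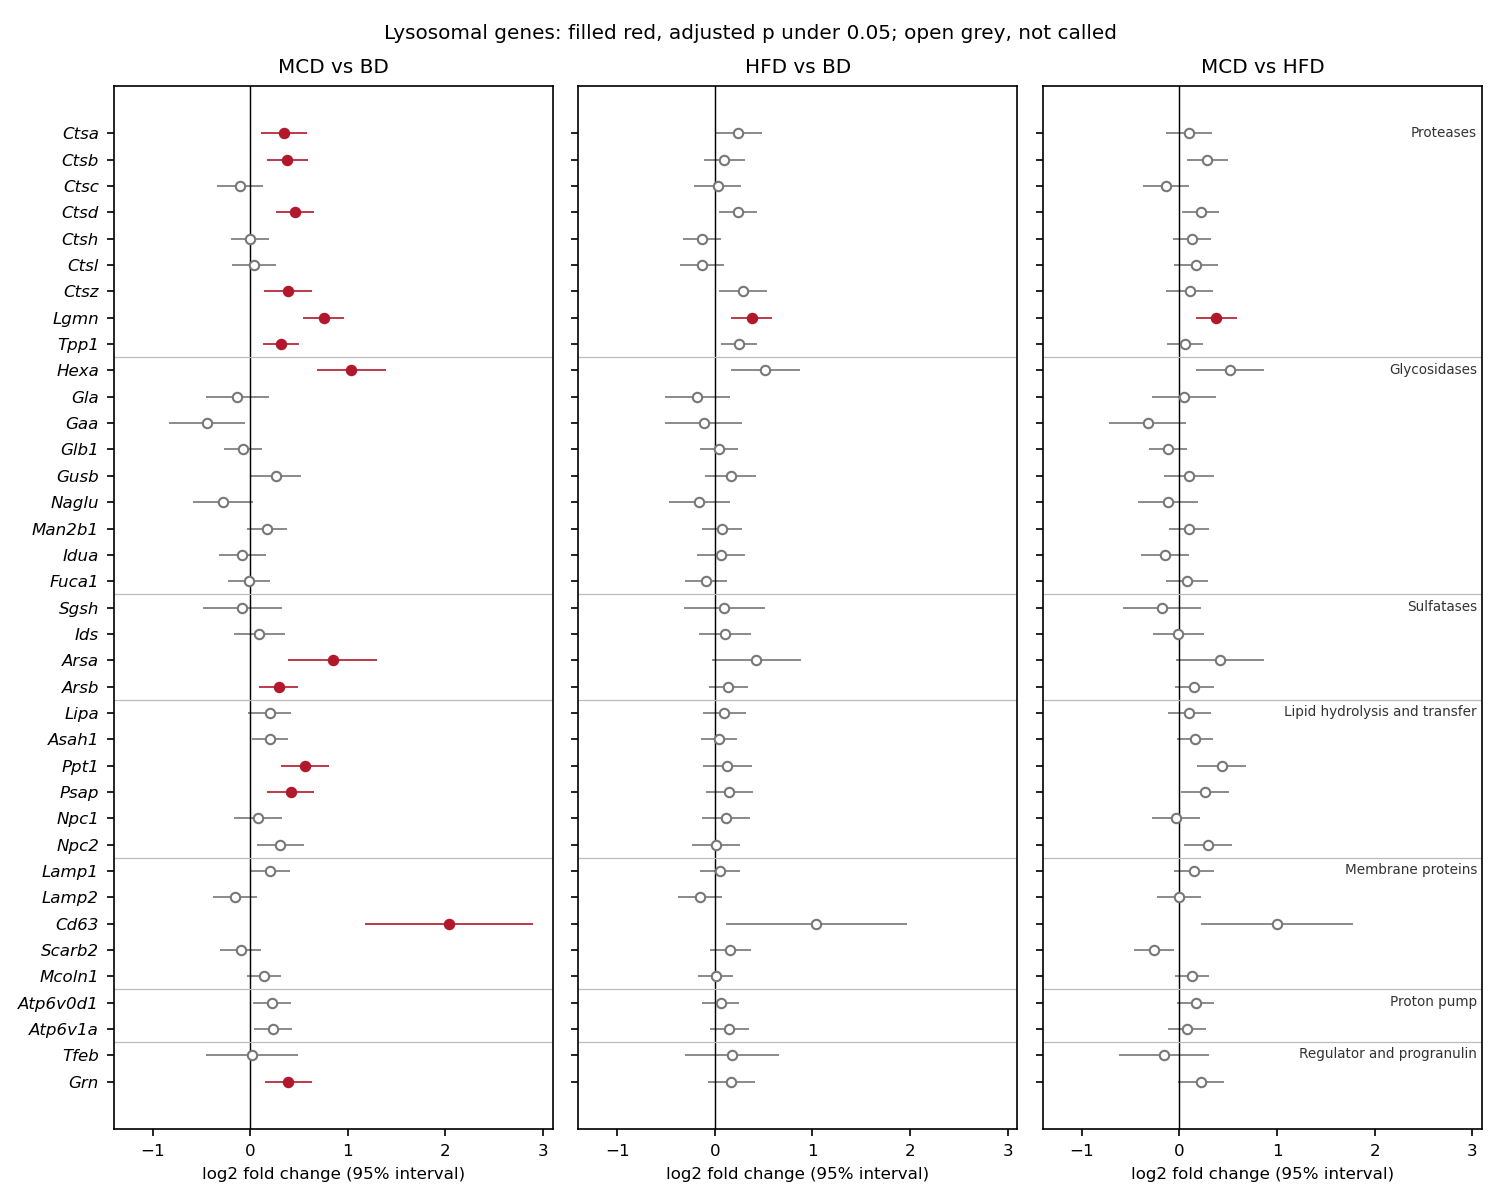
Log2 fold changes with 95% intervals of the 37 lysosomal genes in MCD vs BD, HFD vs BD and MCD vs HFD, ordered by role, with filled points for an adjusted p under 0.05. In MCD vs BD 13 points are filled, all right of 0, while Lgmn alone is filled in the panels of HFD vs BD and MCD vs HFD.

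The proteases held the largest share of calls, with 6 of 9 higher in MCD livers than in BD livers (66.7%, against 12.8% of all genes). Lgmn (chr12:102394084-102439813, minus strand, GRCm38) encodes legumain, a cysteine protease that cuts after asparagine and processes cathepsins. It stood at 106, 116, 100.5, 108 and 103 CPM in MCD livers, 78.7, 99.7, 86.3, 77.5 and 68.9 CPM in HFD livers and 71.3, 63.2, 60.5, 53.3 and 68.7 CPM in BD livers. All 5 MCD libraries lay above every HFD and BD library. Its log2 fold change in MCD vs BD was 0.75 ± 0.10 (SE; adjusted p = 5.98e-05). Ctsd (chr7:142375911-142388038, minus strand) encodes cathepsin D, the main lysosomal aspartic protease. Its level was 645, 682, 574, 585 and 638 CPM in MCD livers, 556, 632, 519, 486 and 493 CPM in HFD livers and 503, 452, 463, 449.6 and 407 CPM in BD livers. Of its 50-base stretches 35.75% also occur in Gm49369, which overlaps it on the same strand and is not among the symbols counted. How far this affects the level is not known. No MCD library reached down to the highest BD library, and HFD replicate 2 lay inside the MCD range. In MCD vs BD the log2 fold change was 0.46 ± 0.09 (SE; adjusted p = 0.00151). Ctsb (chr14:63122462-63145923, plus strand), for the cysteine protease cathepsin B, had 936, 1046, 798, 903 and 911 CPM in MCD livers, 703, 961, 711, 688 and 708 CPM in HFD livers and 711, 679, 685, 744 and 708 CPM in BD livers. The HFD libraries other than replicate 2 lay inside the BD range. MCD vs BD gave a log2 fold change of 0.38 ± 0.10 (SE; adjusted p = 0.0107).

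Among the other proteases, Ctsz, for the carboxypeptidase cathepsin Z, had a log2 fold change of 0.39 ± 0.12 (SE; adjusted p = 0.0229) in MCD vs BD. Ctsa, for the serine carboxypeptidase that also shields β-galactosidase and neuraminidase, had 0.34 ± 0.11 (SE; adjusted p = 0.035). Tpp1, for tripeptidyl peptidase 1, had 0.31 ± 0.09 (SE; adjusted p = 0.0153). The call for Tpp1 was lost without BD replicate 3 (adjusted p = 0.05), that for Ctsz without MCD replicate 4, BD replicate 3 or BD replicate 5 (adjusted p between 0.0513 and 0.0596), and that for Ctsa without MCD replicate 4 or 5 or any of BD replicates 2 to 5 (adjusted p between 0.0551 and 0.0875). The cathepsin genes Ctsc, Ctsh and Ctsl did not pass the test. Their log2 fold changes in MCD vs BD were -0.11 (adjusted p = 0.554) for Ctsc, 0.00 (adjusted p = 0.994) for Ctsh and 0.04 (adjusted p = 0.831) for Ctsl.

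Of the 9 glycosidases, Hexa alone passed the test (11.1%, against 12.8% of all genes called higher). Hexa (chr9:59539540-59565109, plus strand) encodes the α subunit of β-hexosaminidase, which degrades the ganglioside GM2. It stood at 95.8, 109, 84.6, 110.5 and 104 CPM in MCD livers, 70.0, 110.1, 52.4, 51.1 and 67.2 CPM in HFD livers and 53.7, 48.4, 56.3, 42.4 and 45.2 CPM in BD livers. MCD and BD livers did not overlap, and HFD replicate 2 was level with the highest MCD libraries while the other 4 HFD libraries lay below all of them. Against BD, the log2 fold change of MCD was 1.04 ± 0.17 (SE; adjusted p = 0.000356). Gaa (chr11:119267887-119285454, plus strand) encodes acid α-glucosidase, which breaks down lysosomal glycogen. Its values were 70.0, 54.2, 108, 91.1 and 109 CPM in MCD livers, 124, 110.5, 101, 96.1 and 109 CPM in HFD livers and 122, 146, 134, 109.9 and 75.8 CPM in BD livers. The groups overlapped, with the lowest values in MCD replicates 1 and 2 and in BD replicate 5. In MCD vs BD the log2 fold change was -0.44 ± 0.18 (SE; adjusted p = 0.103). Without BD replicate 5, Gaa was called lower in MCD vs BD at -0.57 (adjusted p = 0.0202), and so was Naglu, for the N-acetylglucosaminidase of heparan sulfate breakdown, at -0.42 (adjusted p = 0.0123). With that library in, Naglu had -0.28 (adjusted p = 0.196). Gla (α-galactosidase) had a log2 fold change of -0.13 (adjusted p = 0.588), Glb1 (β-galactosidase) -0.07 (adjusted p = 0.616) and Gusb (β-glucuronidase) 0.26 (adjusted p = 0.146) in MCD vs BD. Man2b1 (α-mannosidase) had 0.17 (adjusted p = 0.244), Idua (α-iduronidase) -0.08 (adjusted p = 0.667) and Fuca1 (α-fucosidase) -0.01 (adjusted p = 0.946).

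Both arylsulfatase genes rose in MCD vs BD, 2 of the 4 sulfatase genes (50%, against 12.8% of all genes called higher). Arsa (chr15:89472476-89477425, minus strand), for the enzyme that removes sulfate from sulfatides, stood at 109, 81.8, 112, 119 and 120.1 CPM in MCD livers, 83.2, 129.9, 55.7, 56 and 79 CPM in HFD livers and 55.1, 76.3, 65.3, 64.4 and 40.6 CPM in BD livers. MCD replicate 2 was the lowest MCD library and still lay above the highest BD library, and HFD replicate 2 exceeded all MCD libraries. MCD vs BD gave a log2 fold change of 0.85 ± 0.22 (SE; adjusted p = 0.0101). Arsb (chr13:93771630-93943016, plus strand), for the sulfatase of dermatan and chondroitin sulfate, had 59.1, 51.7, 60.4, 68.2 and 59.8 CPM in MCD livers, 45.7, 61.9, 49.3, 59 and 52.5 CPM in HFD livers and 50.3, 50.5, 48.6, 49.9 and 46 CPM in BD livers. Against BD, the log2 fold change of MCD was 0.29 ± 0.09 (SE; adjusted p = 0.0349), and the call was lost in 6 of the 10 fits without one MCD or BD library (without MCD replicate 1 or 4, or any of BD replicates 2 to 5; adjusted p between 0.0534 and 0.0987). Of the 50-base stretches of Arsb transcripts, 57.8% also occur in other annotated genes. Gm26527 and Gm47210 are among them, overlap Arsb on the opposite strand and are not among the symbols counted. How far this affects the level of Arsb is not known. Sgsh and Ids, for 2 sulfatases of heparan sulfate breakdown, had log2 fold changes in MCD vs BD of -0.08 (adjusted p = 0.805) for Sgsh and 0.09 (adjusted p = 0.635) for Ids. GENCODE places other genes on the opposite strand of 690 exonic bases of Arsa and 2411 of Arsb, and the strand setting of the counting is not given in the sources used here.

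Among the 6 genes of lipid hydrolysis and transfer, Ppt1 and Psap rose in MCD vs BD (33.3%, against 12.8% of all genes called higher). Ppt1 (chr4:122836242-122859175, plus strand) encodes palmitoyl-protein thioesterase 1, which strips fatty acids from proteins. Its level was 57.5, 57.7, 46, 52.8 and 49.3 CPM in MCD livers, 34.6, 50.1, 38.1, 39 and 33 CPM in HFD livers and 38, 31.8, 30.4, 37.5 and 41.2 CPM in BD livers. The 5 MCD libraries lay above all BD libraries and above every HFD library except replicate 2. Its log2 fold change in MCD vs BD was 0.56 ± 0.12 (SE; adjusted p = 0.00226). Psap (chr10:60277627-60302597, plus strand) encodes prosaposin, the precursor of the saposins that present sphingolipids to hydrolases. It stood at 747, 647, 612, 750.2 and 745 CPM in MCD livers, 581, 784, 517, 479 and 556 CPM in HFD livers and 536, 558, 558, 498 and 480.5 CPM in BD livers. HFD replicate 2 was the highest of the 15 libraries, and MCD and BD livers did not overlap. In MCD vs BD the log2 fold change was 0.41 ± 0.12 (SE; adjusted p = 0.0156). The cholesterol transfer genes had log2 fold changes in MCD vs BD of 0.08 (adjusted p = 0.664) for Npc1, in the membrane, and 0.31 (adjusted p = 0.0673) for Npc2, in the lumen. Lipa, for lysosomal acid lipase, had 0.20 (adjusted p = 0.199) and Asah1, for acid ceramidase, 0.20 (adjusted p = 0.117), again in MCD vs BD.

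Of the 5 membrane proteins, Cd63 alone passed the test in MCD vs BD (20%, against 12.8% of all genes called higher), at a very low level. Cd63 (chr10:128900989-128912822, plus strand), for a tetraspanin of late endosomes and lysosomes, had 7.16, 6.12, 2.63, 6.27 and 4.37 CPM in MCD livers, 2.87, 5.76, 2.37, 0.966 and 1.48 CPM in HFD livers and 1.14, 1.03, 1.29, 1.14 and 1.6 CPM in BD livers. All MCD libraries lay above all BD libraries, and HFD replicates 4 and 5 lay among or below the BD values. MCD vs BD gave a log2 fold change of 2.04 ± 0.41 (SE; adjusted p = 0.00174). Of the 50-base stretches of Cd63 transcripts, 24.6% also occur in the annotated pseudogene Cd63-ps, so reads from these stretches may be missing from the counts and the level is uncertain. Other genes that rose in MCD vs BD also share such stretches with another annotated gene, namely Ctsa (15.7%), Ctsb (15.45%, with Fdft1), Hexa (10.6%, with Tmem202) and Arsa (16.5%). For Ctsa, Ctsb and Arsa genes on the opposite strand overlap at the same place, unlike a separate pseudogene. The levels of these 4 genes are uncertain too, and how far is not known. Lamp1 (chr8:13159161-13175338, plus strand), the most abundant of the 37 per length, stood at 881, 902, 793, 958 and 944 CPM in MCD livers, 737, 1028, 725, 758 and 788 CPM in HFD livers and 809, 764, 728, 788 and 794 CPM in BD livers. Here the MCD and BD ranges touched, since MCD replicate 3 lay below BD replicate 1, and HFD replicate 2 was the highest library of all. Against BD, the log2 fold change of MCD was 0.21 ± 0.10 (SE; adjusted p = 0.151). Mcoln1 (chr8:3500457-3515232, plus strand), for the calcium channel TRPML1 of the lysosomal membrane, had 36.5, 36.8, 37.1, 38.5 and 37.3 CPM in MCD livers, 34, 38.4, 30.8, 32.4 and 34.2 CPM in HFD livers and 38.3, 32.1, 32.9, 35.5 and 31.1 CPM in BD livers. Its log2 fold change in MCD vs BD was 0.14 ± 0.08 (SE; adjusted p = 0.261). Lamp2, for a LAMP protein that also serves chaperone-mediated autophagy, had -0.15 (adjusted p = 0.337) in MCD vs BD. Scarb2, for the receptor that carries β-glucocerebrosidase to lysosomes, had -0.10 (adjusted p = 0.518).

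Neither proton pump gene among the 37 passed the test in MCD vs BD, where 12.8% of all genes were called higher. Atp6v1a (chr16:44085402-44139705, minus strand), for the catalytic A subunit, stood at 83.7, 71.2, 66.9, 76.3 and 66.3 CPM in MCD livers, 71, 72.7, 70.6, 67.8 and 62.6 CPM in HFD livers and 73.5, 57.6, 56.6, 57.1 and 67.1 CPM in BD livers. Atp6v0d1 (chr8:105524465-105566047, minus strand), for the d subunit of the membrane sector, had 87.2, 98.9, 75.5, 77.5 and 78.4 CPM in MCD livers, 72.2, 83.2, 68, 70.4 and 78 CPM in HFD livers and 62.5, 74.3, 71.8, 76.3 and 71.5 CPM in BD livers. The log2 fold changes in MCD vs BD were 0.23 ± 0.09 (SE; adjusted p = 0.0891) for Atp6v1a and 0.22 ± 0.09 (SE; adjusted p = 0.0897) for Atp6v0d1. Grn (chr11:102430315-102437048, plus strand), for progranulin, a secreted and lysosomal glycoprotein that binds prosaposin, had 197, 205, 173, 223 and 236 CPM in MCD livers, 171, 223, 164, 148 and 182 CPM in HFD livers and 159, 152, 154, 188 and 138 CPM in BD livers. MCD replicate 3 lay below BD replicate 4, so the groups overlapped. In MCD vs BD the log2 fold change was 0.39 ± 0.11 (SE; adjusted p = 0.0208), and the call was lost without MCD replicate 4 (adjusted p = 0.0514) or MCD replicate 5 (adjusted p = 0.0519). Tfeb (chr17:47737030-47792419, plus strand) itself stood at 5.11, 4.57, 5.59, 4.78 and 7.31 CPM in MCD livers, 7, 7.36, 4.5, 4.68 and 6.61 CPM in HFD livers and 5.11, 7.43, 6.29, 5.54 and 2.88 CPM in BD livers. The 3 groups covered the same low range. The log2 fold change of Tfeb in MCD vs BD was 0.02, with a 95% interval of -0.46 to 0.49 and an adjusted p of 0.97, an interval that spans changes in both directions.

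**Figure D2:**
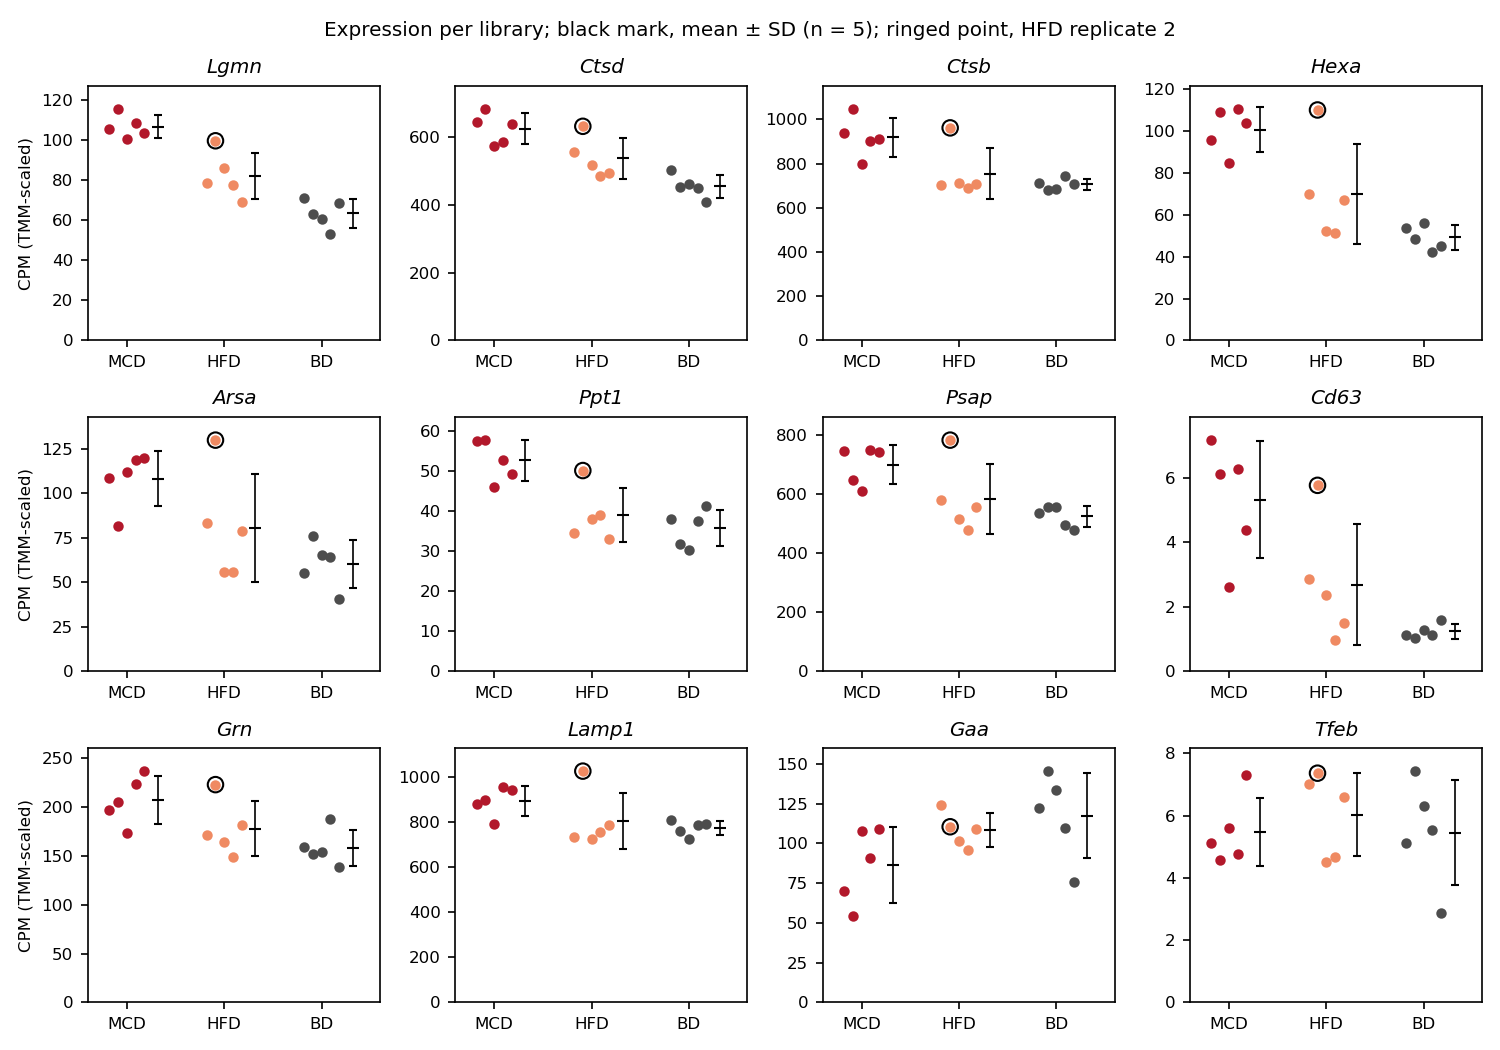
TMM-scaled CPM of 12 lysosomal genes in every library of MCD, HFD and BD livers, with the mean ± SD (n = 5) beside each group and a ring around HFD replicate 2. For Lgmn the MCD libraries lie above all others, and for Ctsb, Hexa, Arsa, Psap and Lamp1 the ringed library lies above the other 4 HFD libraries.

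The E-box that TFEB binds was searched for in promoters from RefSeq (GRCm38.p6), taken from 250 bases before to 50 after each listed start. Some genes have more than 1 start (32851 promoters in all), and a match in any of them counted. By symbol 33 of the 37 genes matched (not Ctsb, Ctsh, Asah1 and Npc1). The palindrome TCACGTGA, which contains TCACGTG and CACGTG, was in the promoters of 6 of the 33 genes (18.2%), namely Ctsa, Ctsd, Gla, Mcoln1, Atp6v0d1 and Atp6v1a, and in those of 1.125% of all 27025 genes with a promoter in the table, both strands counted. TCACGTG was in 13 of the 33 (39.4%) and in 4.29% of all genes, and CACGTG in 14 of the 33 (42.4%) and in 8.09%. GAGGAAGT, the core that the myeloid factor PU.1 binds, was in 3 of the 33 (9.09%) and in 3.69%. Of the 13 genes that rose in MCD vs BD, 12 had a promoter and 4 of these held TCACGTG (Ctsa, Ctsd, Lgmn and Arsa), while 9 of the 21 with a promoter among the genes not called did. A match is a description of letters and no measure of binding. The 4 promoters below hold TCACGTGA and belong to Ctsd (chr7:142387778-142388077, minus strand) and Ctsa (chr2:164833523-164833822, plus strand), which rose in MCD vs BD, and to Atp6v1a (chr16:44139210-44139509, minus strand) and Atp6v0d1 (chr8:105566015-105566314, minus strand), which did not pass the test. They are written 5′ to 3′ on the gene's strand with each TCACGTGA or CACGTG in capitals.
Ctsd: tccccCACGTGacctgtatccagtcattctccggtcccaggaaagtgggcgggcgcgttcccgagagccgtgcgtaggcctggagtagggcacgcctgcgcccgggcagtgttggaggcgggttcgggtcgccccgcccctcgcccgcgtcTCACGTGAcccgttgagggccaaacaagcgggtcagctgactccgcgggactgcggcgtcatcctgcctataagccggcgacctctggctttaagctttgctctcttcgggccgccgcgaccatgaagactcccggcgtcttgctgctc
Ctsa: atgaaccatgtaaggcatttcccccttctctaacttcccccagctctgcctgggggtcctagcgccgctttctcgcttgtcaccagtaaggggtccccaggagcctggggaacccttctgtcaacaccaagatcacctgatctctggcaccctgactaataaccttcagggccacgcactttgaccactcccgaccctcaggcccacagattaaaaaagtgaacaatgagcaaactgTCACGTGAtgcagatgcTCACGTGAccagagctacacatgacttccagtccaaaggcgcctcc
Atp6v1a: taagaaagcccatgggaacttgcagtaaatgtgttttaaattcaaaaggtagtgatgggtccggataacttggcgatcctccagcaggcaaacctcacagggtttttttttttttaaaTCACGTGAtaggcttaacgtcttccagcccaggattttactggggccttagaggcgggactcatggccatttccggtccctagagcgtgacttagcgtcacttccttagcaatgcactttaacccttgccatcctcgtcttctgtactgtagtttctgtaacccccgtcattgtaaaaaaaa
Atp6v0d1: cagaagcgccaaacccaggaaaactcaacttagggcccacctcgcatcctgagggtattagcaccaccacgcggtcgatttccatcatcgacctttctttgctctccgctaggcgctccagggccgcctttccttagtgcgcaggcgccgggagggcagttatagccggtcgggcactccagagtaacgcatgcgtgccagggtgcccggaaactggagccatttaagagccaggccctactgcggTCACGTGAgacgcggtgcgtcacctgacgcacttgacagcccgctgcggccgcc
The palindrome began at position -99 from the start used in Ctsd, at -13 in Ctsa, which held it 2 times, at -132 in Atp6v1a and at -4 in Atp6v0d1. The starts used for Ctsa, Ctsd and Atp6v1a lie inside the genes as GENCODE places them, so these positions are not counted from the outermost annotated start.

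Between the diets of 31% and 4% fat, neither of them deficient, the share of lysosomal genes called higher was near that of all genes. In HFD vs BD, Lgmn was the 1 gene of 37 called higher and none was called lower, against 3.65% of all genes called higher and 3.27% called lower. At an unadjusted p under 0.05, 7 of the 37 were higher (Ctsa, Ctsd, Ctsz, Lgmn, Tpp1, Hexa and Cd63) and none was lower, against 10.8% of all genes higher and 9.42% lower. None of the 37 had all HFD libraries above all BD libraries, as 3.49% of all genes did. The median log2 fold change was 0.10 over the 37 and -0.01 over all genes. Lgmn, with the values given above, had a log2 fold change of 0.38 ± 0.10 (SE; adjusted p = 0.029), and its HFD and BD values overlapped. The call was lost without HFD replicate 2 (0.30, adjusted p = 0.0684), without HFD replicate 3 (adjusted p = 0.052), and without BD replicate 2, 3 or 4 (adjusted p between 0.0573 and 0.0826). Hexa had 0.52 (adjusted p = 0.0766), Ctsd 0.24 (adjusted p = 0.138), Ctsz 0.29 (adjusted p = 0.17), Tpp1 0.25 (adjusted p = 0.098) and Cd63 1.04 (adjusted p = 0.189) in HFD vs BD. Ctsb was at 0.10, with a 95% interval of -0.11 to 0.31 and an adjusted p of 0.66, and Lamp1 at 0.06, with a 95% interval of -0.15 to 0.26 and an adjusted p of 0.82. Tfeb was at 0.18, with a 95% interval of -0.31 to 0.66 and an adjusted p of 0.74.

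HFD replicate 2 lay apart for the genes that rose on the MCD diet. It was the highest HFD library for all 13 genes that rose in MCD vs BD, lay above all BD libraries for 13 of them, and lay at or above the lowest MCD library for 12 of them, Lgmn being the exception. Another HFD library reached the lowest MCD library for 7 of the 13. The same counts over all genes were not computed. With HFD replicate 2 in, the mean of the HFD libraries lay between the MCD and BD means for all 13, and for 24 of the 37. This was not counted without that library or over all genes, and the 13 were picked by their difference between MCD and BD. For Ctsb the HFD libraries other than replicate 2 lay at 688 to 711 CPM, around the BD mean of 705 CPM. Within a diet, the median coefficient of variation over the 37 was 9.99% in MCD livers, 11.2% in HFD livers and 10.99% in BD livers, and Cd63 had the largest in MCD and HFD livers, 34.1% and 69.5%.

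**Figure D3:**
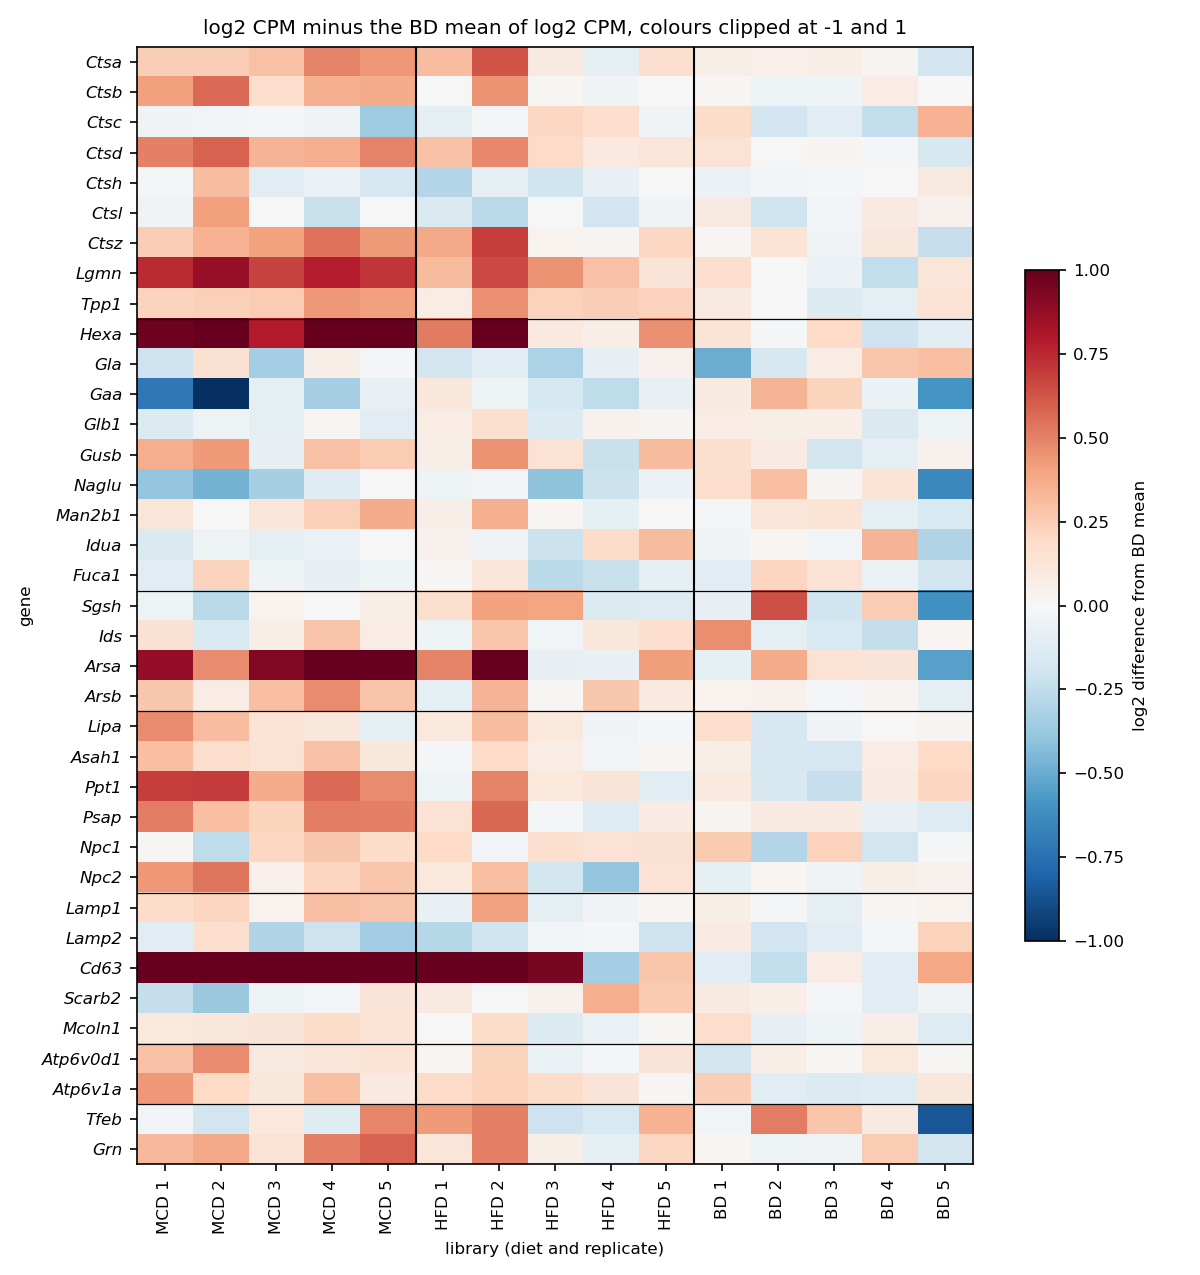
Difference of log2 CPM from the BD mean for the 37 lysosomal genes (rows, by role) in each of the 15 libraries (columns, MCD, HFD and BD), with colours clipped at -1 and 1. The column of HFD replicate 2 resembles the MCD columns for Hexa, Arsa, Psap and Ctsd, while the rows of Ctsc, Glb1, Idua and Scarb2 show no such block.

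At the same fat content, MCD vs HFD, again 1 of the 37 was called higher, Lgmn, and none lower, against 2.22% of all genes called higher and 0.927% called lower. At an unadjusted p under 0.05, 8 were higher (Ctsb, Ctsd, Lgmn, Hexa, Ppt1, Psap, Npc2 and Cd63) and 1 was lower, Scarb2, against 11.1% of all genes higher and 8.83% lower. Lgmn was the 1 gene of the 37 with no overlap, against 2.49% of all genes, and its log2 fold change was 0.38 ± 0.10 (SE; adjusted p = 0.045). The call was lost without any one of MCD replicates 1, 2, 4 and 5, of HFD replicates 1, 3, 4 and 5, or of BD replicates 2 and 3 (adjusted p between 0.0557 and 0.134), and in a fit of the MCD and HFD libraries only (adjusted p = 0.0696). The median log2 fold change was 0.10 over the 37 and 0.00 over all genes.

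Without HFD replicate 2, 10 of the 37 were called higher in MCD vs HFD, against 6.8% of all genes, and none was called lower, against 3.31%. These were Ctsb, Ctsd, Lgmn, Hexa, Arsa, Ppt1, Psap, Npc2, Lamp1 and Cd63, of which 8 also rose in MCD vs BD. Hexa then had a log2 fold change of 0.75 (adjusted p = 0.000971), in place of 0.52 (adjusted p = 0.0942) with all 15 libraries. Ppt1 had 0.55 (adjusted p = 0.00369), in place of 0.43 (adjusted p = 0.0515). Ctsb had 0.40 (adjusted p = 0.00651), in place of 0.28 (adjusted p = 0.123), and Cd63 had 1.56 (adjusted p = 0.00638), in place of 1.0 (adjusted p = 0.142). With MCD replicate 3, the MCD library that was lowest for 13 of the 37, left out as well, 11 were called higher against 7.24% of all genes, Grn being the gene added. This joint omission was chosen after seeing the data. HFD replicate 2 was likewise singled out by its high values in these same 37 genes, so the rise in calls follows in part from that choice. Without HFD replicate 1, 3, 4 or 5 in turn, 0 of the 37 were called higher in MCD vs HFD, against 0.456% to 1% of all genes. In the same fit without HFD replicate 2, MCD vs BD gave 15 calls higher against 13.9% of all genes, Npc2 (0.33, adjusted p = 0.0356) and Lamp1 (0.23, adjusted p = 0.0394) being added. HFD vs BD then gave none against 2.74% of all genes.

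**Figure D4:**
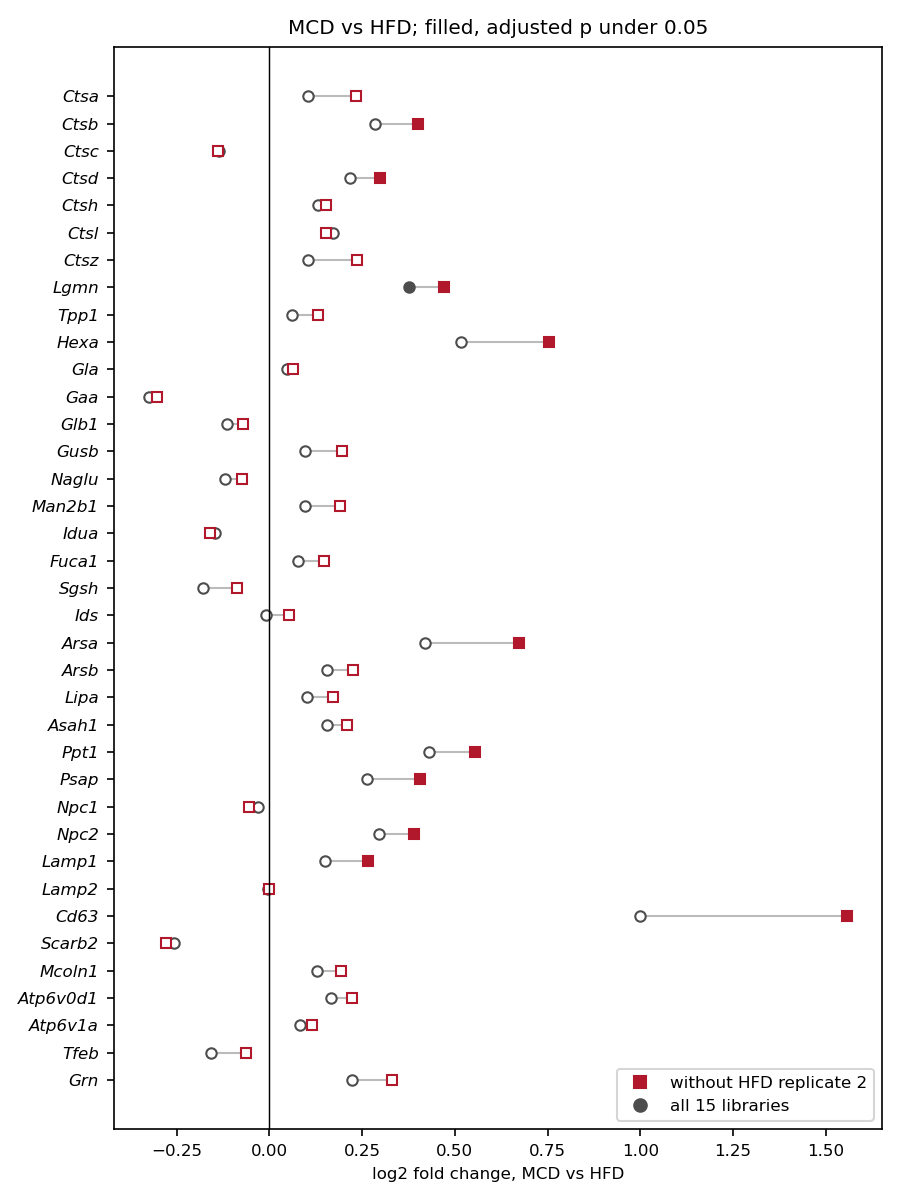
Log2 fold change of the 37 lysosomal genes in MCD vs HFD without HFD replicate 2 (squares) and with all 15 libraries (circles), with filled marks for an adjusted p under 0.05. Without that library 10 squares are filled and Hexa moves to 0.75, whereas with all 15 libraries Lgmn alone is filled.

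Other genes of the pathway were listed by role. Of 30 tested genes for other lysosomal hydrolases and their cofactors, 11 rose in MCD vs BD (36.7%, against 12.8% of all genes). In the same comparison 1, Gm2a, fell (against 8.64% of all genes). In HFD vs BD 4 rose (13.3%, against 3.65% of all genes), and in MCD vs HFD 3 rose (10%, against 2.22%). Ctss, for cathepsin S of antigen-presenting cells, stood at 93.2, 90.9, 80.2, 93.9 and 93.3 CPM in MCD livers, 64.3, 75.4, 53.6, 51.6 and 47.5 CPM in HFD livers and 35.8, 35.7, 38, 31.3 and 52.8 CPM in BD livers. Its log2 fold changes were 1.21 (adjusted p = 1.41e-05) in MCD vs BD, 0.59 (adjusted p = 0.0128) in HFD vs BD and 0.62 (adjusted p = 0.0181) in MCD vs HFD. The call in MCD vs HFD was lost without MCD replicate 1 or HFD replicate 3, 4 or 5 (adjusted p between 0.0514 and 0.0689). Gm2a, for the activator protein that presents GM2 to β-hexosaminidase, had -0.49 (adjusted p = 0.00508) in MCD vs BD. Gm2a, Abca2, Atp6v0a1, Vps26a and Lamtor2 were named after their values were seen.

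Of 19 tested genes for other lysosomal membrane proteins, 6 rose in MCD vs BD (31.6%, against 12.8% of all genes). In the same comparison 1, Abca2, fell (against 8.64% of all genes). In HFD vs BD 3 rose (15.8%, against 3.65% of all genes). Cd68, for a macrophage member of the LAMP family, ranged over 18.5 to 31.3 CPM in MCD livers, 12.5 to 25.3 CPM in HFD livers and 7.55 to 10.5 CPM in BD livers, with 1.39 (adjusted p = 5.31e-05) in MCD vs BD. Laptm5, for a lysosomal protein of blood cells, ranged over 26.9 to 44.1 CPM in MCD livers, 18.9 to 36.8 CPM in HFD livers and 15.2 to 16.5 CPM in BD livers, with 1.21 (adjusted p = 8.8e-05). In HFD vs BD Laptm5 had 0.62 (adjusted p = 0.0332), a call lost without HFD replicate 2 (adjusted p = 0.0888), without any one of BD replicates 1 to 5 (adjusted p between 0.0593 and 0.0723) and by limma-voom (adjusted p = 0.0657). Of 14 other tested proton pump subunits, 5 rose (35.7%, against 12.8% of all genes) and 1, Atp6v0a1, fell (against 8.64%) in MCD vs BD. None was called in HFD vs BD or MCD vs HFD, against 3.65% and 2.22% of all genes called higher and 3.27% and 0.927% called lower. Atp6v1e1 had 0.40 (adjusted p = 0.00714) and Atp6v1c1 0.42 (adjusted p = 0.0167) in MCD vs BD.

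Genes of sorting and delivery to lysosomes, not all of them of the mannose 6-phosphate route, numbered 17 tested. Of these, 1 (Vps26a) rose in MCD vs BD (5.88%, against 12.8% of all genes) and 2 fell (against 8.64% of all genes). Those that fell were Sort1, for the sorting receptor sortilin, with -0.56 (adjusted p = 0.0182), and Ap1g1, for a subunit of the adaptor that packs Golgi vesicles, with -0.35 (adjusted p = 0.00768). Sort1 also fell in HFD vs BD, with -0.64 (adjusted p = 0.023), a call lost without HFD replicate 1 (adjusted p = 0.0596) or BD replicate 2 (adjusted p = 0.0666). The call for Sort1 in MCD vs BD was lost without BD replicate 2 (adjusted p = 0.0574). Without TMM factors the MCD vs BD calls of Sort1 and Ap1g1 were both lost (adjusted p = 0.0689 for Sort1 and 0.0971 for Ap1g1). Of 16 tested genes of the TFEB family and lysosomal nutrient sensing, 3 rose (18.75%, against 12.8% of all genes) and 1, Lamtor2, fell in MCD vs BD. Rragd, for a Rag GTPase of the sensing complex, ranged over 3.97 to 8.92 CPM in MCD livers, 2.37 to 6.7 CPM in HFD livers and 1.14 to 2.45 CPM in BD livers and had 1.66 (adjusted p = 0.000305) in MCD vs BD and 1.06 (adjusted p = 0.0295) in HFD vs BD, where the call was lost without HFD replicate 2 (adjusted p = 0.0898), without BD replicate 1, 2, 3 or 4 (adjusted p between 0.0567 and 0.0727) and by limma-voom (adjusted p = 0.0937). Rragc had 0.32 (adjusted p = 0.0185) in MCD vs BD, a call lost without MCD replicate 1 (adjusted p = 0.0506) or BD replicate 3 (adjusted p = 0.0523). Of 21 tested autophagy genes, 1 rose (4.76%, against 12.8% of all genes) and none fell (against 8.64%) in MCD vs BD. That gene was Map1lc3b, for the autophagosome protein LC3B, with 0.31 (adjusted p = 0.0337), a call lost without MCD replicate 2 or BD replicate 1, 2, 3 or 4 (adjusted p between 0.0541 and 0.092). Atg9a had -0.41 (adjusted p = 0.0543), and was called lower without any one of MCD replicate 3, MCD replicate 5 and BD replicate 5, as well as with the joint omission described above (adjusted p between 0.0136 and 0.0375). Median log2 fold changes in MCD vs BD were 0.13 for the other hydrolases, 0.18 for the other membrane proteins, 0.27 for the other pump subunits, 0.04 for the delivery genes, 0.18 for the TFEB family and sensing genes and -0.04 for the autophagy genes, beside -0.03 for all genes tested.

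Markers of macrophages moved with the diets as well. In whole tissue, fewer cells of a type and less RNA per cell cannot be told apart. All 12 macrophage markers rose in MCD vs BD, against 12.8% of all genes tested. In HFD vs BD 3 of them rose (25%, against 3.65%), and in MCD vs HFD 4 rose (33.3%, against 2.22%). None was at 0 in all libraries of a diet, but Gpnmb, at 4.59 to 26.4 CPM in MCD livers and 0.0483 to 9.06 CPM in HFD livers, was at 0 to 0.516 CPM in BD livers. The summed level of the 12 ran from 384 to 544 CPM in MCD livers, from 269 to 419 CPM in HFD livers and from 193 to 305 CPM in BD livers. The highest HFD sum was in HFD replicate 2. In BD livers the highest was in replicate 5, at 304.7 CPM against 193.3 to 234.5 CPM in the other BD libraries. BD replicate 5 was the lowest BD library for 15 of the 37 lysosomal genes and the highest for 8. The lowest MCD macrophage sum was in replicate 3, which was the lowest MCD library for 13 of the 37 and the highest for 1. The lowest HFD macrophage sum was in replicate 5, which was the lowest HFD library for 3 of the 37 and the highest for 3. The 6 Kupffer cell markers summed to 289 to 450 CPM in MCD livers, 269 to 362 CPM in HFD livers and 174 to 318 CPM in BD livers. Of these BD sums, that of replicate 5 was 317.7 CPM and the others were 174.0 to 229.4 CPM. In MCD vs BD 4 of the 6 rose (66.7%, against 12.8% of all genes). The 8 stellate cell markers summed to 522 to 865 CPM in MCD livers, 376 to 513 CPM in HFD livers and 295 to 391 CPM in BD livers, and 7 of them rose in MCD vs BD (87.5%, against 12.8% of all genes). Of the 9 hepatocyte markers tested none rose and 2 fell in MCD vs BD, with a median log2 fold change of -0.31, while 12.8% of all genes were called higher and 8.64% lower. Most of their summed level was Alb, for albumin, at 90500 to 134400 CPM in MCD livers, 85430 to 109100 CPM in HFD livers and 95350 to 117100 CPM in BD livers. Those that fell were Cps1, for the first enzyme of the urea cycle (-1.56, adjusted p = 0.000111), at 1308 to 2504 CPM in MCD livers, 1356 to 3433 CPM in HFD livers and 4499 to 6475 CPM in BD livers, and Hnf4a, for a hepatocyte transcription factor (-0.37, adjusted p = 0.00777). Cps1 also fell in HFD vs BD (-1.18, adjusted p = 0.00227). Gpnmb, Alb, Cps1 and Hnf4a were named after their values were seen. The part of these cells in the levels of the 37 genes was not tested.

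**Figure D5:**
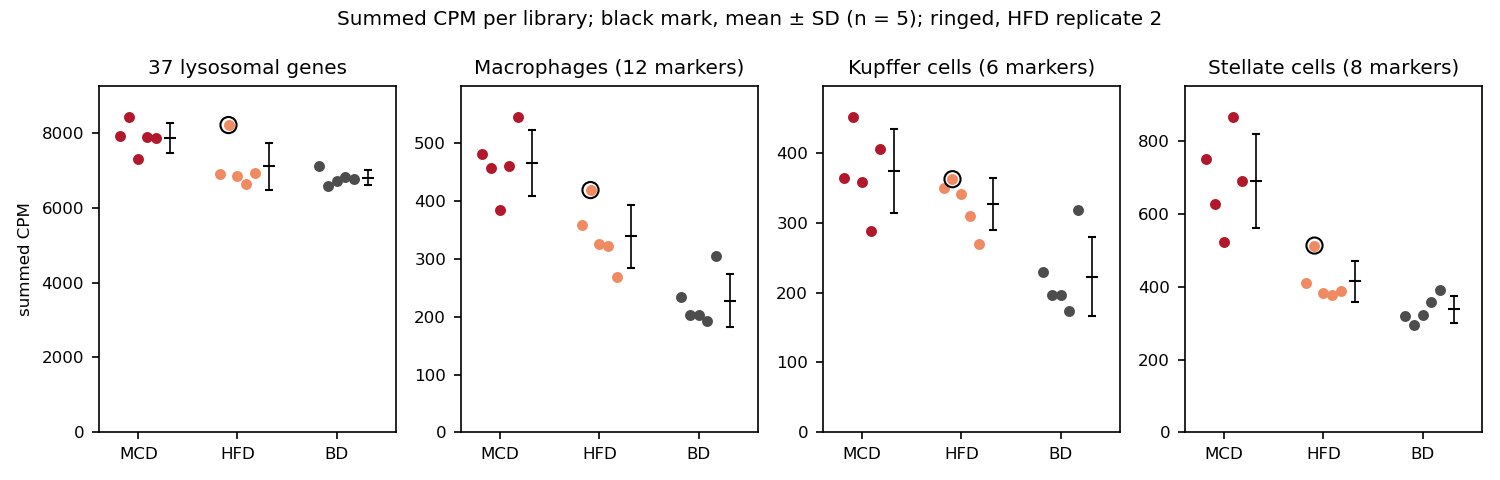
Summed CPM per library of the 37 lysosomal genes and of the macrophage, Kupffer cell and stellate cell markers in MCD, HFD and BD livers, with the mean ± SD (n = 5) and a ring around HFD replicate 2. MCD sums lie above all BD sums for the lysosomal genes (7286 to 8407 against 6583 to 7119) and for the macrophage markers (384 to 544 against 193 to 305), and the ringed library has the highest HFD sum in all 4 panels.

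Other marker lists were lower in level or moved less. Endothelial markers summed to 305 to 328 CPM in MCD livers, 240 to 284 CPM in HFD livers and 245 to 313 CPM in BD livers, and 3 of 7 rose in MCD vs BD (42.9%, against 12.8% of all genes). Cholangiocyte markers summed to 78.6 to 254 CPM in MCD livers, 58.8 to 193 CPM in HFD livers and 56.5 to 96.0 CPM in BD livers, with 1 of 4 tested higher and 1 lower in MCD vs BD (12.8% and 8.64% over all genes). Lymphocyte markers summed to at most 10.2 CPM and neutrophil markers to at most 6.18 CPM in any library. Erythroid markers, with Hba-a1 at 0 throughout, summed to 151 to 236 CPM in MCD livers, 137 to 194 CPM in HFD livers and 169 to 187 CPM in BD livers. Of the pancreas markers Prss2, Cpa1, Amy2a5 and Ins2 were at 0 in all 15 libraries. Cela1 alone gave 8.74 to 16.6 CPM in MCD livers, 7.55 to 19.1 CPM in HFD livers and 21.0 to 30.9 CPM in BD livers.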

How the data were processed

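Each library has 1 deposited file of raw counts by gene symbol. Per the submitters' processing notes, the tools were TopHat2 2.0.13, Trimmomatic, HTSeq and DESeq2 and the build GRCm38 (mm10), and per the labels' protocols libraries came from a stranded polyA kit. The annotation and the strand setting used for counting were not given in the sources used here, so the 11 of the 37 genes with exons on the strand opposite another gene and the 3 that overlap one on the same strand are uncertain. Rows for reads outside genes (12.7% to 17.0% of uniquely placed reads) and ambiguous reads (0.567% to 0.841%) stayed out of library sizes.

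Counts were fitted with edgeR 4.0.16 (R 4.3.3, scaling by TMM, filterByExpr by diet with a minimum count of 10 and a minimum total of 15, robust quasi-likelihood F test, 1 fit over 15 libraries, common biological coefficient of variation 0.176), and every adjusted p for a gene is from this two-sided test, with Benjamini-Hochberg adjustment over 12193 genes, unless another fit is named. SE was obtained as |log2 fold change| over the root of F. On simulated counts for MCD vs BD with 12118 genes, 37 of 100 genes changed 1.5-fold and 82 of 100 changed 2-fold were recovered. Of the calls 4.03% were false, so smaller changes can be missed. Only 200 genes, drawn at random from all tested, were changed, while the data gave 1557 calls higher and 1053 lower in MCD vs BD. The shares recovered therefore do not give the recovery for the 37 genes. No 2 libraries of 1 diet were copies (pairs between diets were not compared): in 30 pairs of replicates, chi-square was 7.33 to 64.98 times its degrees of freedom. Intervals are for the log2 fold change between 2 diets and rest on the spread between libraries. They are not ranges of single libraries.

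Members, lists and tests were chosen with earlier results of these data known. Named in full were, per role, the 2 members with the smallest p in MCD vs BD, any member called in HFD vs BD, and Tfeb, Mcoln1 and Ctsb, and per pathway list the 2 genes with the smallest p, except for 1 pathway gene that is not reported here. All 37 members, all 123 pathway genes and 67 of 70 markers (of macrophages, Kupffer cells, hepatocytes, stellate cells, endothelial cells, cholangiocytes, lymphocytes, neutrophils, erythroid cells and pancreas) were found. Cd68 is in both the membrane and the macrophage list. Positions and exon lengths are from GENCODE M21, promoters from RefSeq. Alternatives were DESeq2 1.42.0, voom from limma 3.58.1, other scalings, no filter, fits of 2 diets, and leaving out each library.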

Additional observations from a re-analysis of the deposited data

Results flagged for a closer look

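Among 144 groups of 5 libraries (37 lysosomal and 11 other named genes in 3 diets), 10 held a library whose gap to its nearest neighbour exceeded 0.71 of the group's range, Dixon's 95% critical value for 5 samples. Chance flags about 1 in 20 groups. HFD replicate 2 was the library in 5 of the 10. It was the highest HFD library for Ctsb (961 CPM against 688 to 711 CPM in the others, ratio 0.916), Lamp1 (1028 against 725 to 789 CPM, ratio 0.791), Laptm5 (36.8 against 18.9 to 22.3 CPM, ratio 0.811) and Map1lc3b (62.6 against 55 to 57.1 CPM, ratio 0.721). It was the lowest HFD library for Npc1 (168.0 against 190.1 to 197.5 CPM, ratio 0.748).

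In MCD livers, replicate 2 was highest for Ctsh (322 against 232 to 256 CPM, ratio 0.733) and for Fuca1 (89.9 against 71.2 to 74.5 CPM, ratio 0.822). Replicate 5 was lowest for Ctsc (79.8 against 99.6 to 101 CPM, ratio 0.916), and replicate 3 was lowest for Ctss (80.3 against 90.9 to 93.9 CPM, ratio 0.781). In BD livers, replicate 5 was lowest for Ctsa (142 against 165 to 169 CPM, ratio 0.847).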

How the results depend on the processing

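Of the 13 genes called higher in MCD vs BD, 8 (Ctsb, Ctsd, Lgmn, Hexa, Arsa, Ppt1, Psap and Cd63) were called in all 22 alternatives. The count in MCD vs BD was 22 without TMM factors (18.9% of all genes) and 9 to 16 when one library was left out (10% to 13.9% of all genes). The count of lysosomal genes lower in MCD vs BD was 0 to 2 when one library was left out (5.83% to 10.1% of all genes), with 2 without BD replicate 5 (10.1%). In HFD vs BD the count higher was 2 by DESeq2 (4.5% of all genes), 2 without TMM factors (4.83%), 0 without HFD replicate 2 and MCD replicate 3 (2.62%), and 0 to 3 when one library was left out (2.39% to 4.1%). In MCD vs HFD it was 2 by DESeq2 (3.23%), by limma-voom (3.09%), without TMM factors (3.37%) and without the count filter (1.63%), 0 in the fit of the libraries of both diets only (1.41%), 11 without HFD replicate 2 and MCD replicate 3 (7.24%), and 0 to 10 when one library was left out (0.456% without HFD replicate 4 to 6.8% without HFD replicate 2). The causes were not tested. Without TMM factors the median of all genes moved by 0.07 in HFD vs BD and 0.08 in MCD vs HFD (log2), and calls over all genes were 589 higher and 297 lower in HFD vs BD (445 and 399 with them) and 411 higher and 67 lower in MCD vs HFD (271 and 113 with them). No paired analysis was possible because the labels give no replicate numbers: 1 to 5 only name libraries here, numbered by accession, and pair nothing.

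Over 111 lysosomal results (37 genes in 3 comparisons) and 22 alternatives, 2269 of 2442 values kept direction and side of the threshold, 35 lost the call, 54 gained it and 84 changed sign. For 33 results of other named genes the counts were 669, 31, 21 and 5 of 726. None of the values that changed sign passed the test in the fit as reported or in the alternative. Log2 fold changes that changed sign are given by setting. By DESeq2, Ctsh had 0.0033 in MCD vs BD. With RLE size factors, Ctsh had 0.0079 in MCD vs BD. By limma-voom, Npc2 had -0.0052 in HFD vs BD and Sgsh 0.0446 in MCD vs BD. Without the count filter, Ctsh had 0.0155 and Fuca1 0.0041 in MCD vs BD, and Ids had 0.001 and Lamp2 0.0073 in MCD vs HFD. In the fit of both diets only, Ctsh had 0.0224 and Fuca1 0.0112 in MCD vs BD. Without TMM factors, MCD vs BD gave Ctsc 0.0347, Ctsh 0.1333, Fuca1 0.1227, Gla 0.0097, Glb1 0.0674, Idua 0.0593, Scarb2 0.0443 and Sgsh 0.0584, and MCD vs HFD gave Ids 0.0692, Lamp2 0.0704 and Npc1 0.0499. Without HFD replicate 2 and MCD replicate 3, HFD vs BD gave Ctsb -0.0042, Lamp1 -0.0445, Man2b1 -0.0054, Map1lc3b -0.0211, Mcoln1 -0.0362 and Npc2 -0.0661, MCD vs BD gave Ctsh 0.0319 and Fuca1 0.003, and MCD vs HFD gave Ids 0.0537, Lamp2 0.0252 and Sort1 -0.0971.

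When one library was left out, the log2 fold changes that changed sign ranged as follows. In MCD vs BD, Ctsh ran from -0.085 to 0.0548, Ctsl from -0.0642 to 0.1056, Fuca1 from -0.0715 to 0.042, Sgsh from -0.2398 to 0.1252, Idua from -0.1599 to 0.0188 and Tfeb from -0.191 to 0.1697. In HFD vs BD, Ctsc ran from -0.0257 to 0.1295, Map1lc3b from -0.0278 to 0.0822, Mcoln1 from -0.0307 to 0.063, Idua from -0.0105 to 0.1638, Sgsh from -0.0603 to 0.3066, Tfeb from -0.031 to 0.3294, Npc2 from -0.0598 to 0.1051 and Lamp1 from -0.0392 to 0.105. In MCD vs HFD, Ids ran from -0.0586 to 0.0538, Lamp2 from -0.0886 to 0.0508, Npc1 from -0.0746 to 0.0475, Gla from -0.0042 to 0.1205 and Sort1 from -0.0365 to 0.201. With the fit that leaves out both doubtful libraries counted too, Ctsb ran from -0.0042 to 0.131 and Man2b1 from -0.0054 to 0.1156 in HFD vs BD, and Npc1 from -0.0929 to 0.0475 in MCD vs HFD. Depth limits Cd63 and Tfeb, which lay near 1 to 7 CPM while 3 counts stood for up to 0.81 CPM in the shallowest library. Gla and Sgsh are limited too. The lowest count in a library was 4 for Cd63, 18 for Tfeb, 17 for Gla and 27 for Sgsh. In BD livers the counts of Cd63 were 4, 10, 15, 8 and 34.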
